A study of Mus musculus with 6 samples.

Results

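Cells carrying the C-type lectin transcripts Cd209a or Mgl2 without the resident macrophage transcripts Lyve1, Vsig4 and Folr2 were examined in dissociated mouse knee synovium profiled by droplet-based 3′ single-cell RNA-seq. A cell was a member when its mitochondrial share of UMIs (unique molecular identifiers, 1 per captured transcript) was at most 10%. It also needed at least 3 UMIs of Tyrobp, Fcer1g and Csf1r together, at most 5 of Dcn and Col1a2, at least 2 of Cd209a and Mgl2, and at most 2 of Lyve1, Vsig4 and Folr2. The rule found 929 cells among the 18077 cells kept, which is 5.14%, and among 4590 cells that passed its myeloid limits. The cells were thus selected on their measured UMIs of these 10 genes and the mitochondrial genes, and every other gene of the same cells shares that choice. They are called Cd209a/Mgl2 cells here.

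The study asked how Notch3 affects the arthritic joint, with healthy mice and mice made arthritic by transfer of serum from K/BxN mice. The 6 groups were profiled with 1 library each, made from the pooled synovium of 10 mice and with 7000 cells loaded. The arthritic groups were Notch3-/- knockout mice, wild-type mice, mice given an anti-Notch3 antibody and mice given an isotype control antibody, and the healthy groups were Notch3-/- and wild-type mice. The labels name no cell type to which the knockout is restricted, and they give neither strain nor age. No group has a replicate, so p-values measure the spread between libraries of different groups. The barcodes carry a library tag that is numbered consecutively within both arthritic pairs but not within the healthy pair or between healthy and arthritic libraries, so what the tag may mark and these contrasts cannot be told apart. The members numbered 152 cells in the arthritic Notch3-/- library, 63 in the arthritic wild-type library, 127 in the anti-Notch3 library and 47 in the isotype library, against 333 in the healthy Notch3-/- library and 207 in the healthy wild-type library.

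MHC class II molecules carry peptides to the cell surface for CD4+ T cells, with Cd74 as the chaperone of the newly made chains and H2-DM as the editor of the peptide. Dendritic cells hold these genes at high levels and depend on the receptor Flt3, whereas macrophages of the synovial lining and sublining clear debris through receptors such as Mertk and make the C1q complement proteins. Cd209a and Mgl2 encode lectins that bind glycans and occur on type 2 conventional dendritic cells and on some macrophages. Retnla encodes a secreted protein induced by interleukin 4 signalling.

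Class II genes carry an upstream Y box, an element bound by NF-Y that acts together with the neighbouring X box through RFX and the coactivator Ciita. The class II chains H2-Aa and H2-Eb1, which were among the most abundant transcripts of the Cd209a/Mgl2 cells, are shown by the 250 bases before their start, from RefSeq on build GRCm38.p6, with the letters CTGATTGG in capitals. The H2-Aa window is chr17:34287824-34288073 on the minus strand and the H2-Eb1 window is chr17:34305617-34305866 on the plus strand.
H2-Aa: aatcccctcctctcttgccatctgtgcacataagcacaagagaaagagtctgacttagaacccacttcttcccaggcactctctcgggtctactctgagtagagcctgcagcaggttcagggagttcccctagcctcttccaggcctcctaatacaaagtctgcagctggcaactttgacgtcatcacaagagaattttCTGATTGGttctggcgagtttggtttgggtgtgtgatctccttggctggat
H2-Eb1: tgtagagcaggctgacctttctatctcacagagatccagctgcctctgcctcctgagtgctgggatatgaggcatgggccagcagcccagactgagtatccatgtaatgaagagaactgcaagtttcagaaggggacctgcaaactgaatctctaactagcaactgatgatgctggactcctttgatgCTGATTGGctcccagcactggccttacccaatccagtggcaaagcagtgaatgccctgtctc
The 8 letters, searched on both strands, were present in the windows of 4 of 8 matched H2- class II genes (H2-Aa, H2-Eb1, H2-Eb2 and H2-Oa) and in 3.83% of all 32851 windows. They begin 51 bases before the H2-Aa start and 62 bases before the H2-Eb1 start. H2-Ab1 had no entry in the table. A match describes letters and does not show binding.

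The libraries held 2109 to 5096 cell barcodes and 11636998 to 24535233 UMIs, and library pairs shared 5 to 29 barcodes, 1 of them a member barcode. Summed over the members, a library gave 276963 to 1790281 UMIs, and all levels below are these sums scaled to library depth, in the usual CPM unit. Exact Poisson and binomial intervals cover counting error only. Notch3 was checked in fibroblast-gated cells (20 or more UMIs of Dcn and Col1a2), where the arthritic Notch3-/- library had 1 UMI (0.141 CPM) and the arthritic wild-type library 24 UMIs (4.08 CPM), and the healthy Notch3-/- library had 5 UMIs (0.353 CPM) and the healthy wild-type library 81 UMIs (5.47 CPM). In the members themselves Notch3 had 1 UMI in all 6 libraries together, in the healthy wild-type library. Neither labels nor files name the deleted span, and a 3′ tag outside it would check nothing. The isotype library stood apart in its heat-shock transcripts: Hspa1a reached 10908 CPM in its members, against 3925 CPM in the anti-Notch3 library and 313 to 1031 CPM in the other libraries, and it was also highest in that library in Lyve1/Vsig4/Folr2 macrophages (5662 CPM) and in the remaining myeloid cells (7228 CPM).

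The transcripts that fixed membership are described without a test. Cd209a (chr8:3743395-3748984) had 1720, 905, 1400 and 1549 CPM in the arthritic Notch3-/-, wild-type, anti-Notch3 and isotype libraries, against 1349 and 581 CPM in the healthy Notch3-/- and wild-type libraries. Mgl2 (chr11:70130125-70137542) had 1538, 641, 1003 and 693 CPM in the same arthritic libraries, against 1352 and 1478 CPM in the healthy ones. Cd209a was thus lowest in the healthy wild-type library, and Mgl2 was lowest in the arthritic wild-type and isotype libraries. Cells with both transcripts numbered 640, cells with Mgl2 alone 211 and cells with Cd209a alone 78. Cells with Cd209a alone made up 6.58% of the members in the arthritic Notch3-/- library and 42.9% in the arthritic wild-type library, and 8.66% in the anti-Notch3 library and 29.8% in the isotype library, against 3.60% in the healthy Notch3-/- library and 1.93% in the healthy wild-type library. In the healthy wild-type library 14 members sat at the lower limit of 2 lectin UMIs and held 19633 CPM of Cd74, and the 16 cells just outside it, with 1 lectin UMI, held 20017 CPM. At the other limit, 26 members of that library with 1 or 2 UMIs of Lyve1, Vsig4 and Folr2 held 30956 CPM of Cd74, and the 95 cells with 3 or more held 7025 CPM. Inside and outside this limit Cd74 had 37716 and 10321 CPM in the healthy Notch3-/- library, and 44730 and 26719 CPM in the arthritic Notch3-/- library. It had 23184 and 21748 CPM in the anti-Notch3 library and 17205 and 20689 CPM in the isotype library. In the arthritic wild-type library 1 cell on each side held 11545 and 36852 CPM.

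The class II genes were high in the Cd209a/Mgl2 cells of every library. Cd74 (chr18:60803849-60812652) had 57654, 44726, 47347 and 35160 CPM in the arthritic Notch3-/-, wild-type, anti-Notch3 and isotype libraries, against 46677 and 41672 CPM in the healthy Notch3-/- and wild-type libraries. H2-Ab1 (chr17:34263227-34269418), the beta chain of I-A, had 19006, 16443, 17383 and 16024 CPM in the same arthritic libraries, against 17024 and 16398 CPM in the healthy ones. The arthritic and healthy ranges of both genes overlapped. H2-Aa lay between 13092 and 17396 CPM and H2-Eb1 between 10225 and 13676 CPM in the 6 libraries. The peptide editor chains followed at lower levels, H2-DMa at 1316 to 1665 CPM and H2-DMb1 at 1281 to 1530 CPM, and the coactivator Ciita at 42.5 to 116.7 CPM. The editor inhibitor chains H2-Oa, at 33.0 to 133.7 CPM, and H2-Ob, at 50.5 to 66.2 CPM, were lower again. The 18 class II presentation genes found in the files summed to 79530 to 111490 CPM in the Cd209a/Mgl2 cells, against 2420 to 10784 CPM in Lyve1/Vsig4/Folr2 macrophages and 20393 to 43685 CPM in the remaining myeloid cells. Cd74 was present in 98.1% of the healthy wild-type members (95% exact binomial interval 95.1 to 99.5%), with a median of 7288 UMIs a cell, and in 5.63% of that library's fibroblast-gated cells, with a median of 8246.

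The data went against part of the label macrophage. Flt3, the receptor of the dendritic cell growth factor, had 54.5, 73.9, 37.1 and 54.2 CPM in the arthritic Notch3-/-, wild-type, anti-Notch3 and isotype members, against 33.5 and 41.8 CPM in the healthy Notch3-/- and wild-type members, and it had 0 UMIs in the 1353 Lyve1/Vsig4/Folr2 macrophages of all libraries. A Flt3 UMI was found in 14.7 to 26.3% of the members of a library, and in 0.236% or less of the fibroblast-gated cells. Thinned to 2000 UMIs a cell, 7.43 to 13.3% of the members had one. Napsa, an aspartic peptidase, had 265 to 581 CPM in the members against 2.19 to 13.6 CPM in the Lyve1/Vsig4/Folr2 macrophages, Kmo, an enzyme of kynurenine breakdown, had 21.8 to 56.3 CPM against 0 to 3.06 CPM, and Dpp4 had 22.9 to 44.9 CPM against 0 to 7.11 CPM. The whole list of 14 such genes, which includes the rule gene Cd209a, summed to 2037 to 3195 CPM in the members, against 186 to 295 CPM in those macrophages and 503 to 811 CPM in the remaining myeloid cells. Cd209a alone averaged 1251 CPM in the members over the libraries. Both comparison sets were limited to at most 1 UMI of Cd209a and Mgl2, so this part of the gap was fixed by the rule.
Macrophage genes were present at lower levels. The apoptotic cell receptor Mertk had 0 to 5.61 CPM in the members against 34.7 to 59.1 CPM in the Lyve1/Vsig4/Folr2 macrophages, and was at 0 in 3 member libraries. C1qa had 387 to 925 CPM against 6009 to 7047 CPM. Adgre1, which encodes F4/80, had 42.2 to 152 CPM against 280 to 482 CPM. The 15 macrophage identity genes summed to 8820 to 23980 CPM in the members against 40163 to 70542 CPM. Of the markers of type 1 dendritic cells, Xcr1 had 0 to 6.62 CPM and Clec9a 0 to 5.30 CPM in the members. The whole list of 8 such genes summed to 127 to 343 CPM in the members. It summed to 99.2 to 173 CPM in the Lyve1/Vsig4/Folr2 macrophages and to 253 to 514 CPM in the remaining myeloid cells. Because these cells hold dendritic cell transcripts, the name macrophage is not used for them below.

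**Figure D1:**
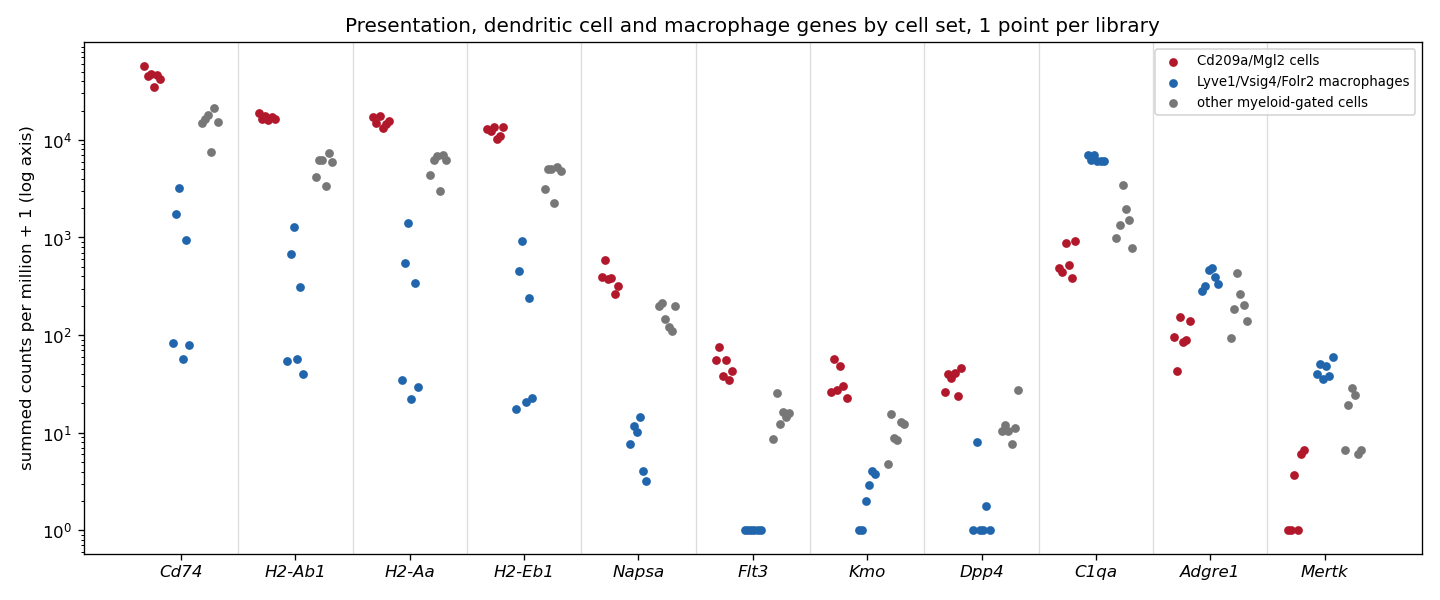
Summed expression of class II, dendritic cell and macrophage genes (x axis) in CPM plus 1 on a log axis, with 1 point per library for Cd209a/Mgl2 cells, Lyve1/Vsig4/Folr2 macrophages and the other myeloid-gated cells. The class II genes and Flt3 lie highest in the Cd209a/Mgl2 cells, with Flt3 at 0 in the Lyve1/Vsig4/Folr2 macrophages, whereas C1qa, Adgre1 and Mertk lie highest in the Lyve1/Vsig4/Folr2 macrophages.

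Beyond the rule genes, the genes with the largest smallest ratio to the other myeloid cells over the 6 libraries are given as a description, since every gene of the chosen cells shares the choice. They included the fatty acid transporter Slc27a3, with a mean of 72.4 CPM in the members and 3.45 CPM in the other myeloid cells, and the lectin paralog Cd209d, with 230 CPM and 13.2 CPM. Tnip3, an inhibitor of NF-kappa-B signalling, averaged 475 CPM in the members and 60.9 CPM in the others, and the interleukin 33 receptor Il1rl1 averaged 47.9 CPM and 6.37 CPM. Further genes of this kind were Tnfrsf18, Wnt11, Lmo1, Klrb1b, Bcl11a, Ccnd2 and Krt80. At the opposite end stood the lysosomal protease Ctsd, with 142 CPM in the members and 1345 CPM in the others, and the tetraspanin Cd63, with 103 CPM and 994 CPM. The lectins formed a graded family. Cd209b, Cd209c, Cd209e, Cd209f and Cd209g stayed between 0 and 31.7 CPM in every library, whereas Cd209d ranged from 70.2 CPM in the anti-Notch3 library to 374 CPM in the arthritic Notch3-/- library. How reads were assigned among these paralogs was not checked. Clec10a, the homologue of Mgl2, had 146, 275, 236 and 307 CPM in the arthritic Notch3-/-, wild-type, anti-Notch3 and isotype libraries, against 87.7 and 137 CPM in the healthy Notch3-/- and wild-type libraries. Every arthritic library was above both healthy ones, and the gene did not pass the test of the arthritis effect (edgeR adjusted p = 0.582). The share of all genes that separate this way was not counted.

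The Cd209a/Mgl2 cells were not alike among themselves. Complement C1q transcripts (C1qa, C1qb and C1qc together) split them: 201 cells had 10 or more UMIs, 685 had at most 2 and 43 lay between. A Flt3 or Zbtb46 UMI was found in 9 of the 201 C1q-rich cells and in 206 of the 685 C1q-poor cells. These limits were chosen after the values were seen, so the contrast is a description. The C1q-rich cells had 36229.5 CPM of Cd74 and 6059.5 CPM of Apoe, and the C1q-poor cells had 49489.6 CPM of Cd74 and 104 CPM of Apoe. C1q-rich cells made up 18.4, 15.9, 33.1 and 17.0% of the members in the arthritic Notch3-/-, wild-type, anti-Notch3 and isotype libraries, against 13.8 and 32.4% in the healthy Notch3-/- and wild-type libraries.

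Retnla (chr16:48842609-48844461) was held by few of the cells. It had 889, 507, 3399 and 10.8 CPM in the arthritic Notch3-/-, wild-type, anti-Notch3 and isotype members, against 2940 and 2160 CPM in the healthy Notch3-/- and wild-type members. The 96 cells with 10 or more Retnla UMIs, 10.3% of the members, held 99.0% of its 12254 UMIs. In the arthritic wild-type library all 144 UMIs came from 1 cell, and in the anti-Notch3 library 3 cells held 76.8% of 2566 UMIs. Pooled over libraries these 96 cells also had 1012 CPM of the matrix gene Fn1 and 2765 CPM of the chemokine Ccl6, and the other members had 180 CPM and 671 CPM. The lipase Lpl had 726 CPM and 131 CPM, Flt3 had 1.53 CPM and 48.3 CPM, and 3 of the 96 had a Flt3 or Zbtb46 UMI. Retnla was not confined to the members: the 16 cells with 1 lectin UMI just outside the limit in the healthy wild-type library held 9719 CPM.

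Cell cycle transcripts were also unevenly spread. At least 2 UMIs of Mki67, Top2a and Birc5 together were found in 20 of 152 members of the arthritic Notch3-/- library, 1 of 63 of the arthritic wild-type library, 3 of 127 of the anti-Notch3 library and 3 of 47 of the isotype library, against 21 of 333 and 20 of 207 in the healthy Notch3-/- and wild-type libraries. A UMI of a Cd3 chain or Trac, transcripts of T cells, was found in 24 members, 7 of the 47 isotype members and 5 of the 63 arthritic wild-type members among them. Scrublet marked 3 of the 929 members, and 0.592% of all cells kept, as doublets.

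**Figure D2:**
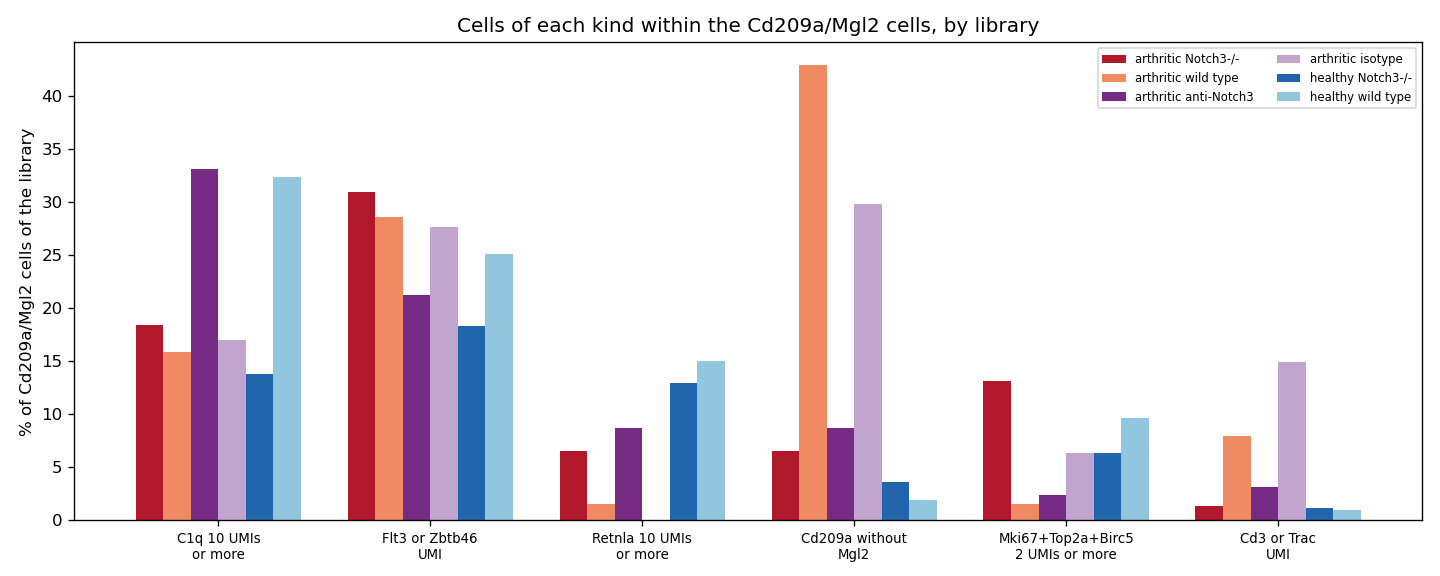
Share of the Cd209a/Mgl2 cells of each library (y axis, %) that carried C1q, Flt3 or Zbtb46, Retnla, Cd209a without Mgl2, cell cycle or T cell transcripts at the stated UMI limits (x axis), with 1 bar per library. Cells with Cd209a but no Mgl2 reach 42.9% in the arthritic wild-type library and 29.8% in the isotype library, and stay at or below 8.66% in the other 4.

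The share of Cd209a/Mgl2 cells was lower in the arthritic wild-type and isotype libraries than in the other 4. Of the myeloid-gated cells they made up 29.5% in the arthritic Notch3-/- library (95% exact binomial interval 25.6 to 33.7%), 6.42% in the arthritic wild-type library (4.97 to 8.14%), 16.0% in the anti-Notch3 library (13.5 to 18.8%) and 7.65% in the isotype library (5.68 to 10.0%). The healthy Notch3-/- library had 37.6% (34.4 to 40.9%) and the healthy wild-type library 25.8% (22.8 to 29.0%). The mean was 14.9% over the 4 arthritic libraries and 31.7% over the 2 healthy ones, a difference of -16.8 percentage points that an exact two-sided permutation test over libraries did not separate (p = 0.200, smallest possible p = 0.0667). The arthritic Notch3-/- value lay above the healthy wild-type value, so the groups overlapped. The share was higher with Notch3 lost or blocked in 3 of 3 pairs, by 23.1 percentage points in the arthritic genotype pair, 8.36 points in the antibody pair and 11.8 points in the healthy pair (exact paired permutation test, two-sided p = 0.25, the smallest possible).
Of all cells kept, the members made up 5.72, 2.63, 6.14 and 1.55% in the arthritic Notch3-/-, wild-type, anti-Notch3 and isotype libraries, against 6.66 and 7.10% in the healthy Notch3-/- and wild-type libraries. Both healthy libraries were above all 4 arthritic ones, with means of 4.01% over the arthritic and 6.88% over the healthy libraries (exact two-sided permutation test, p = 0.133). With Notch3 lost or blocked the share was higher in 2 of 3 pairs, 2.18-fold in the arthritic genotype pair and 3.97-fold in the antibody pair, and it was lower by 0.436 percentage points in the healthy pair. The direction in the healthy pair turned with the settings: the share was higher by 0.545 points in the Notch3-/- library when every cell was thinned to 2000 UMIs, and by 0.055 points with no Lyve1, Vsig4 or Folr2 UMI allowed, so that 3 of 3 pairs were then higher. The median depth of all barcodes was 4533.5 UMIs in the healthy Notch3-/- and 7561 UMIs in the healthy wild-type library. The remaining myeloid cells had at most 1 UMI of Cd209a and Mgl2 and at most 2 of Lyve1, Vsig4 and Folr2. In the arthritic Notch3-/-, wild-type, anti-Notch3 and isotype libraries they filled 22.1, 85.5, 57.3 and 74.6% of the myeloid gate. In the healthy Notch3-/- and wild-type libraries they filled 18.2 and 12.1%. Lyve1/Vsig4/Folr2 macrophages filled 45.0, 7.95, 24.7 and 17.4% of the gate in the same arthritic libraries. They filled 38.1 and 50.2% of it in the same healthy libraries. Their share was thus also lowest in the arthritic wild-type and isotype libraries, so the low share there was not particular to the members. A further 185 myeloid-gated cells, with at least 2 lectin UMIs and at least 3 of Lyve1, Vsig4 and Folr2, are not counted in these shares. They numbered 17, 1, 16 and 2 in the same arthritic libraries, against 54 and 95 in the healthy ones. Shares within a library are relative, so fewer members and more of the remaining myeloid cells cannot be told apart.

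**Figure D3:**
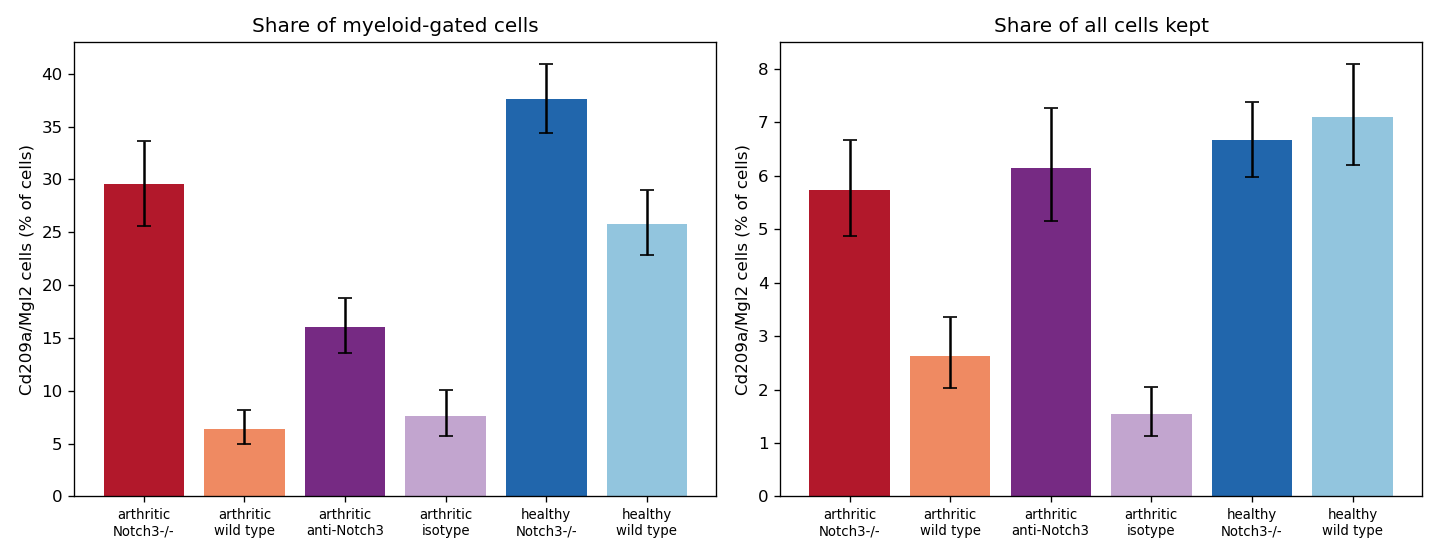
Share of Cd209a/Mgl2 cells (y axis, %) among myeloid-gated cells (left) and among all cells kept (right), with 1 bar per library and 95% exact binomial intervals as bars. The arthritic wild-type and isotype libraries, at 6.42 and 7.65% of myeloid-gated cells, are the lowest in both panels.

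Arthritis was tested on the summed counts of the members, 4 arthritic against 2 healthy libraries with Notch3 targeting in the model. Of 6549 genes tested by edgeR's quasi-likelihood test, 1 passed a Benjamini-Hochberg adjusted p of 0.05, which is 0.0153%, and 352 had an unadjusted p under 0.05. This was Fabp4 (chr3:10204342-10208616), a fatty acid carrier of adipocytes, endothelium and some macrophages. It had 27.2, 3.52, 18.5 and 7.22 CPM in the arthritic Notch3-/-, wild-type, anti-Notch3 and isotype members, against 321 and 187 CPM in the healthy Notch3-/- and wild-type members. Both healthy libraries were above all 4 arthritic ones, and the log2 fold change was -4.08 (SE 0.32, edgeR adjusted p = 0.00169). Fabp4 was named for its small p, so this separation is no further result. The healthy level was concentrated: 3 cells held 59.3% of the 575 Fabp4 UMIs of the healthy Notch3-/- library and 77.3% of the 299 UMIs of the healthy wild-type library. Without the 3 highest cells of each library it had 21.0, 0, 9.58 and 0 CPM in the same arthritic libraries, against 133 and 43.1 CPM in the healthy Notch3-/- and wild-type libraries. Both values of 0 CPM were fixed in advance, since only 1 arthritic wild-type member and 2 isotype members carried Fabp4. Of 8 endothelial markers 3 were tested for the arthritis effect, 2 with positive and 1 with negative values and 0 past the threshold. Their median log2 fold change was 0.35, against 0.02 over all genes. The 8 endothelial markers, none of them at 0 in every library, summed to 47.9, 35.2, 17.2 and 36.1 CPM in the arthritic Notch3-/-, wild-type, anti-Notch3 and isotype members, against 70.4 and 59.3 CPM in the healthy Notch3-/- and wild-type members. Gpihbp1, which holds lipoprotein lipase on capillaries, had 0, 3.52, 0 and 0 CPM in the same arthritic libraries, against 24.0 and 9.36 CPM in the healthy ones, and Rbp7 had 0 CPM in all 4 arthritic libraries, against 13.4 and 21.2 CPM. Their part in the Fabp4 result was not tested. In Lyve1/Vsig4/Folr2 macrophages Fabp4 had 172, 14.2, 26.5 and 17.5 CPM in the same arthritic libraries, against 356 and 84.1 CPM in the healthy ones. There the groups overlapped, and the difference of the arthritis effect between both kinds of cell did not pass (edgeR log2 difference -2.34, SE 0.49, adjusted p = 0.473).

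Other genes with the smallest p did not pass. Ltb, a cytokine of lymphocytes, had 3.27, 84.5, 15.9 and 57.8 CPM in the arthritic Notch3-/-, wild-type, anti-Notch3 and isotype members, against 0.559 and 2.495 CPM in the healthy Notch3-/- and wild-type members (edgeR adjusted p = 0.283). Plac8, a marker of monocytes and plasmacytoid cells, had 57.7, 1369, 106 and 520 CPM, against 10.6 and 38.1 CPM (adjusted p = 0.283). Il6 had 24.0, 3.52, 13.2 and 3.61 CPM, against 69.3 and 28.1 CPM (edgeR adjusted p = 0.343). For each of these genes the arthritic and healthy libraries did not overlap. The genes were named for their small p, so this separation is no further result. The share of all genes that separate this way was not counted, here or for other genes given as not overlapping. The T cell costimulatory receptors Tnfrsf9 (log2 fold change 7.59) and Tnfrsf4 (5.40) followed (edgeR adjusted p = 0.510 each). Members with a Cd3 or Trac UMI held 100% of the Tnfrsf9 UMIs and 95.8% of the Tnfrsf4 UMIs, and 76.7% of those of Ltb. The Tnfrsf9 value is set against healthy libraries at 0 and depends on the prior count.

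Gene lists gave counts of 0 apart from Fabp4. The class II presentation list had 0 of 15 tested genes past the threshold, with a median log2 fold change of 0.16 over the list and 0.02 over all genes, and 15 positive values. The interferon response list had 0 of 14 past the threshold, with a median of 1.30 and 14 positive values. Its 18 genes summed to 795, 4023, 1518 and 1401 CPM in the arthritic Notch3-/-, wild-type, anti-Notch3 and isotype members, against 1173 and 644 CPM in the healthy Notch3-/- and wild-type members, so the arthritic Notch3-/- members were below the healthy Notch3-/- ones. Irf7, the regulator of type I interferon genes, had 7.63, 408, 64.9 and 61.4 CPM, against 33.5 and 3.12 CPM. The same list summed to 5706 CPM in the remaining myeloid cells of the arthritic wild-type library and to 1020 to 2360 CPM in those of the other libraries, and to 2445 to 3490 CPM in the Lyve1/Vsig4/Folr2 macrophages of all libraries. The cell cycle list had 0 of 13 past the threshold, with a median of -0.93 and 13 negative values. The resident macrophage list had 0 of 13, with a median of -0.43 and 10 negative values. It includes Lyve1, Vsig4 and Folr2, which the members rule capped. The type 2 dendritic cell list, with the rule gene Cd209a, had 0 of 13, with a median of 0.55. The macrophage identity list, with the rule gene Csf1r, had 0 of 14, with a median of -0.03.

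Within single pairs there is no test, and genes are counted as higher or lower when they differed at least 2-fold with 20 or more UMIs in the pair. Between the arthritic and the healthy wild-type library, 26.7% of 6757 genes differed by this measure, 6.01% higher and 20.7% lower. Of the interferon response list 14 of 15 genes were higher, and of the cell cycle list 13 of 14 were lower, with Ifitm1 at 2034 CPM in the arthritic and 3.74 CPM in the healthy wild-type members. Between the arthritic and the healthy Notch3-/- library 6.51% of 7034 genes differed, 3.04% higher and 3.47% lower, with 1 of 13 interferon genes higher and 4 lower, and 1 of 14 cell cycle genes higher and 0 lower. Ccl5 had 62.1 CPM in the arthritic and 4.47 CPM in the healthy Notch3-/- members, where 2 cells held the 57 UMIs of the arthritic library.

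Loss or blockade of Notch3 was tested over 3 pairs, Notch3-/- against wild type in arthritic and in healthy mice and anti-Notch3 against isotype. Of 6549 genes 1 passed by edgeR's quasi-likelihood test, which is 0.0153%, with 283 at an unadjusted p under 0.05. It was Mucl1 (chr15:103751923-103755498, annotated by RefSeq as a transcribed pseudogene). It had 206 CPM in the arthritic Notch3-/- and 0 CPM in the arthritic wild-type members, 273 CPM in the healthy Notch3-/- and 4.99 CPM in the healthy wild-type members, and 0 CPM in both the anti-Notch3 and the isotype members. The fitted log2 fold change was 6.23 (SE 0.55, adjusted p = 0.0232). It rests on both genotype pairs, since the antibody pair had no UMI, and it depends on the prior count. Mucl1 was found in 9 of 152 arthritic and 21 of 333 healthy Notch3-/- members, and 3 cells held 72.0% and 41.2% of its UMIs there. DESeq2 did not call it (adjusted p = 0.9999) and called Plac8 instead, and edgeR did not call it without the cells that had a Cd3 or Trac UMI (adjusted p = 0.0770) nor in the cells with at most 2 C1q UMIs (0.0738).

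Ccl17, a ligand of the receptor Ccr4 made by dendritic cells, was higher in 3 of 3 pairs. It had 455 CPM in the arthritic Notch3-/- and 28.2 CPM in the arthritic wild-type members, 427 CPM in the anti-Notch3 and 3.61 CPM in the isotype members, and 372 CPM in the healthy Notch3-/- and 79.9 CPM in the healthy wild-type members. All 3 targeted libraries were above all 3 untargeted ones, and the fitted log2 fold change was 3.66 (SE 0.55), which did not pass (edgeR adjusted p = 0.222). How many of all genes separate this way was not counted, so the separation is no further result. Ccl17 was carried by 30 of 152 arthritic Notch3-/- members, 14 of 127 anti-Notch3 members and 77 of 333 healthy Notch3-/- members, against 3 of 63 arthritic wild-type, 1 of 47 isotype and 22 of 207 healthy wild-type members. The level rested on few cells in the arthritic libraries, where 3 cells held 60.0% of 418 UMIs in the Notch3-/- members and 80.4% of 322 UMIs in the anti-Notch3 members. Without the 3 highest cells of each library Ccl17 had 188 CPM in the arthritic Notch3-/- and 0 CPM in the arthritic wild-type members, 86.0 CPM in the anti-Notch3 and 0 CPM in the isotype members, and 267 CPM in the healthy Notch3-/- and 35.7 CPM in the healthy wild-type members. Both values of 0 CPM were fixed in advance, since only 3 arthritic wild-type members and 1 isotype member carried it. They are therefore no check of the contrast in the arthritic pairs. In the C1q-rich members Ccl17 was at 0.917 CPM and in the C1q-poor members at 352 CPM, pooled over libraries. In the remaining myeloid cells Ccl17 had 1362 CPM in the arthritic Notch3-/- and 2.66 CPM in the arthritic wild-type library, 10.9 CPM in the anti-Notch3 and 22.02 CPM in the isotype library, and 1271 CPM in the healthy Notch3-/- and 28.2 CPM in the healthy wild-type library. The direction in the antibody pair thus differed between members and remaining cells.

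The lists again had no gene past the threshold over the 3 pairs. The class II presentation list had 0 of 15, with a median log2 fold change of 0.21 over the list and 0.01 over all genes, and the interferon response list 0 of 14 with a median of -0.43. The chemokine list had 0 of 17 with a median of 0.53, and the Notch list 0 of 4 with a median of -0.16. Notch1 lay between 11.9 and 36.1 CPM, Notch2 between 24.0 and 52.5 CPM, and Rbpj, the DNA-binding partner of cleaved Notch, between 92.7 and 261 CPM in the 6 libraries. The metal-binding proteins Mt2 and Mt1 were higher in 3 of 3 pairs without passing (edgeR log2 fold changes 1.26 and 0.95, adjusted p = 0.711 and 0.969).

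Over both arthritic pairs alone, a fit added after the values were seen, 41 of 4597 genes passed by edgeR's quasi-likelihood test, which is 0.892%, with 11 higher (0.239%) and 30 lower (0.653%). This fit has 1 residual degree of freedom per gene. Of 17 chemokines tested 3 rose and 1 fell. Those that rose were Ccl17 (log2 fold change 4.90, SE 0.50, adjusted p = 1.37e-05), Ccl5 (2.68) and Ccl6 (1.47). The lipoprotein lipase Lpl (2.78), the fatty acid receptor Cd36 (2.37), Slc27a3 (2.47), the lysosomal lipase Lipa (1.96), Apoe (1.45) and the lectin Clec4b1 (1.93) rose too. The 15 macrophage identity genes, Apoe among them, summed to 13386 CPM in the arthritic Notch3-/- and 8820 CPM in the arthritic wild-type members. In the anti-Notch3 members they summed to 23980 CPM, and in the isotype members to 9063 CPM. C1q-rich cells made up 18.4% and 15.9% of the first pair, and 33.1% and 17.0% of the second. With at most 2 C1q UMIs a cell, 4 of 3523 genes tested passed, and the count also moved with other settings, given below. The part of C1q-rich cells in these calls was not tested. Lpl had 129 CPM in the arthritic Notch3-/- and 49.3 CPM in the arthritic wild-type members, and 289 CPM in the anti-Notch3 and 10.8 CPM in the isotype members. Ccl5 rested on few cells, since 3 of the anti-Notch3 members held 82.97% of that library's 276 UMIs.
Genes that fell included Ifitm1 (-6.93), Plac8 (-3.33), the decoy interleukin 1 receptor Il1r2 (-3.63), the antiviral Isg20 (-3.57) and Ccl8 (-5.33). Ifitm1 had 3.27 CPM in the arthritic Notch3-/- and 2034 CPM in the arthritic wild-type members, and 13.2 CPM in the anti-Notch3 and 498 CPM in the isotype members, where 33 of the 63 arthritic wild-type and 15 of the 47 isotype members carried it. It had 81.5 CPM and 714 CPM in the remaining myeloid cells of the arthritic Notch3-/- and wild-type libraries, and 5.93 CPM and 297 CPM in those of the anti-Notch3 and isotype libraries. The 16 Ccl8 UMIs of the arthritic wild-type members and the 34 of the isotype members came from 1 cell in each library. Tnfrsf4, Tnfrsf9 and Ltb fell too, as did the heat-shock genes Hspa1b, Hsph1 and Hspa4l. The 12 T and NK cell markers summed to 89.3 CPM in the arthritic Notch3-/- and 267 CPM in the arthritic wild-type members, and to 152 CPM in the anti-Notch3 and 227 CPM in the isotype members. The 16 dissociation stress genes summed to 12348 CPM and 10974 CPM in the first pair, and to 16692 CPM and 25473 CPM in the second. Their part in these calls was not tested. The count rests on the settings: 12 genes passed without the cells that had a Cd3 or Trac UMI, 5 with DESeq2, and 0 with at least 3 lectin UMIs, without the cells that had a Flt3 UMI or without the pair term. The effect in the arthritic pairs differed from that in the healthy pair for 72 of 7489 genes by edgeR's quasi-likelihood test, which is 0.961%, with 16 higher (0.214%) and 56 lower (0.748%). The spread in this last fit was shared across genes, so its calls do not rest on each gene's own spread. In the healthy pair Lpl had 144 CPM in the Notch3-/- and 323 CPM in the wild-type members, and Ifitm1 had 3.91 CPM and 3.74 CPM.

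**Figure D4:**
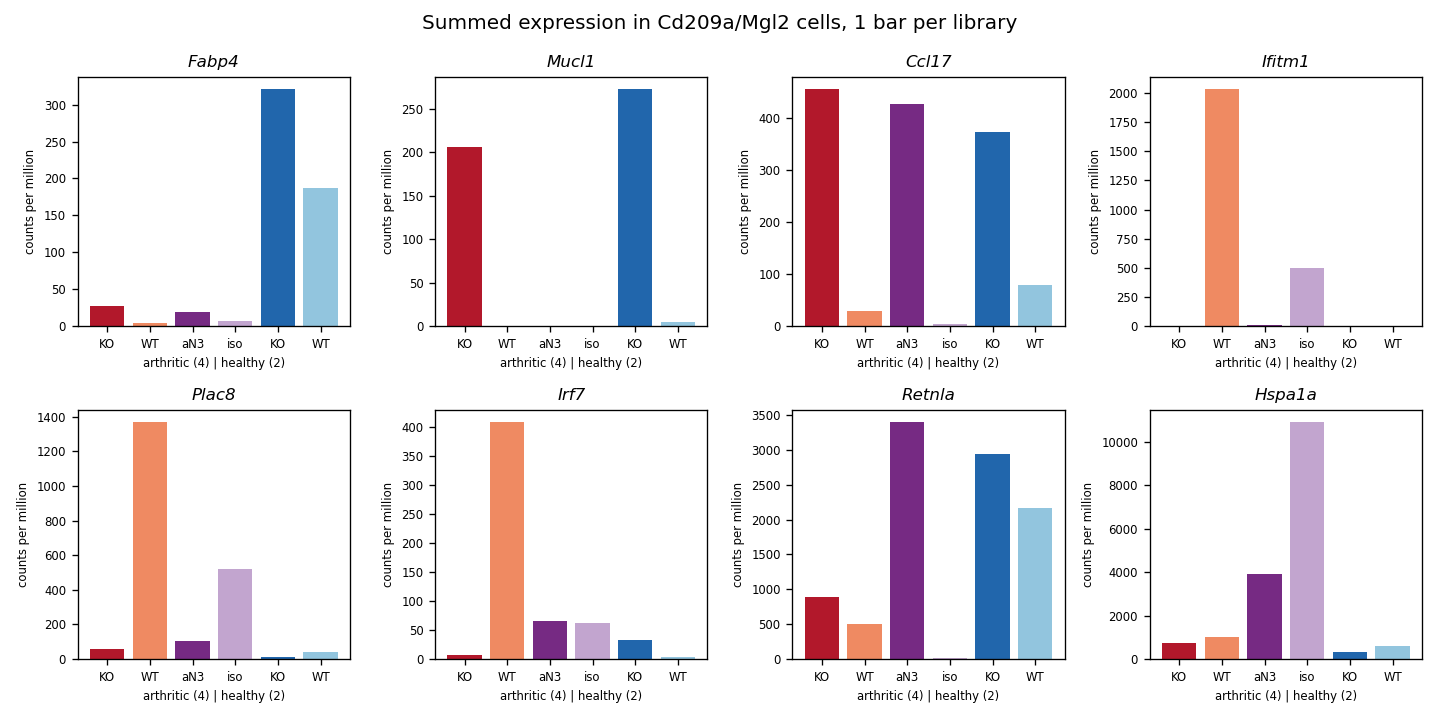
Summed expression in the Cd209a/Mgl2 cells (y axis, CPM) of 8 genes, 1 panel each and 1 bar per library, with the 4 arthritic libraries (Notch3-/-, wild type, anti-Notch3, isotype) left of the healthy pair. Fabp4 is highest in both healthy libraries, Ifitm1 and Plac8 are highest in the arthritic wild-type and isotype libraries, and Hspa1a is highest in the isotype library at 10908 CPM.

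Between single libraries, 17.7% of 4815 genes differed at least 2-fold between the arthritic Notch3-/- and wild-type members, 10.2% higher and 7.5% lower. Of the interferon response list 12 of 13 genes were lower and 0 higher, and of the cell cycle list 12 of 13 were higher. Isg15, an interferon-induced modifier, had 19.6 CPM in the arthritic Notch3-/- and 313 CPM in the arthritic wild-type members. Between the anti-Notch3 and isotype members 14.1% of 4359 genes differed, 4.43% higher and 9.64% lower, with 1 of 9 interferon genes higher and 0 lower. Of the cell cycle list 0 of 4 genes were higher and 1 was lower in this pair, unlike in the arthritic genotype pair. The 14 cell cycle genes summed to 1334 CPM in the arthritic Notch3-/- and 201 CPM in the arthritic wild-type members, and to 355 CPM in the anti-Notch3 and 657 CPM in the isotype members. Retnla had 3399 CPM in the anti-Notch3 and 10.8 CPM in the isotype members, and Ccl22, which shares its receptor with Ccl17, had 106 CPM and 0 CPM, where 3 cells held 88.8% of 80 UMIs. Between the healthy Notch3-/- and wild-type members 15.6% of 8022 genes differed, 2.59% higher and 13% lower, with 7 of 14 interferon genes higher and 0 lower. These pairs of libraries have no replicates.

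Set against the Lyve1/Vsig4/Folr2 macrophages in 1 paired fit over the 6 libraries, the arthritis effect differed for 0 of 8460 genes by edgeR's quasi-likelihood test (0%), with 461 at an unadjusted p under 0.05. The genes with the smallest p were Clec10a (log2 difference 2.20, SE 0.42, adjusted p = 0.473), the secreted phosphoprotein Spp1 (-6.23, SE 1.27) and Fabp4. Spp1 had 56.7, 52.8, 37.1 and 108 CPM in the arthritic Notch3-/-, wild-type, anti-Notch3 and isotype members, against 31.8 and 49.9 CPM in the healthy Notch3-/- and wild-type members. In the Lyve1/Vsig4/Folr2 macrophages it had 7.70, 914, 519 and 1015 CPM in the same arthritic libraries, against 3.83 and 2.81 CPM in the healthy ones. A p that misses the threshold does not show that both kinds of cell respond alike.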

How the data were processed

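Living cells sorted from dissociated knee synovium were profiled with a 10x Genomics 3′ kit in 6 libraries, 1 per group, each from 10 pooled mice, per the labels. The deposited matrices hold whole-number UMI counts per gene and barcode. The counts came from Cell Ranger 3.0.2 on mm10, per the submitters' processing notes, and other steps are not given in the sources used here. Of 18491 barcodes, 414 above 10% mitochondrial UMIs were removed. Member counts were summed per library and fitted with edgeR 4.0.16 (R 4.3.3, TMM scaling, its default filter on low counts, quasi-likelihood test, limma 3.58.1), with a threshold of 0.05 on the Benjamini-Hochberg adjusted p over all genes tested. DESeq2 1.42.0 was an alternative. Arthritis was fitted with a term for Notch3 targeting, and targeting with a term for the pair, which joins libraries by treatment arm and not by shared animals. Single pairs were compared by ratio after adding 0.5 UMIs. Shares were compared by exact permutation over libraries (scipy 1.17.1). Doublets were marked with Scrublet in scanpy 1.11.5 (Python 3.11.15), with an expected rate of 0.03 and a score of at least 0.25, a limit set after the automatic one was found to vary between runs. They were kept in the main results. Fits were tested on simulated data. Alternatives covered the normalization, the filters, the limits of the rule, doublets and leaving out each library.

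The members and gene lists were chosen with earlier results of these data known. Genes are named by a rule: up to 10 per direction with the largest change among those past the threshold, or, where fewer than 3 pass, the 5 with the smallest p per direction. To these were added the 5 largest ratios per direction of each pair, the genes of the membership rule and 5 markers, the passing or most abundant list members, and the 20 genes with the largest smallest ratio to other myeloid cells. The gene symbols Ifi30 and Clec7a are not analysed here.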

Additional observations from a re-analysis of the deposited data

Results flagged for a closer look

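The effect of losing or blocking Notch3 differed between the arthritic pairs and the healthy pair for 72 of 7489 genes (0.961%, edgeR's quasi-likelihood test with Benjamini-Hochberg adjustment, 1 residual degree of freedom), 16 of them higher and 56 lower in the arthritic pairs. This fit was added after the values were seen. Its spread was taken wholly from a trend shared across genes, and the healthy pair was fitted exactly. The p-values of this fit thus do not measure each gene's own spread between libraries. The values below are log2 differences, the effect in the arthritic pairs minus that in the healthy pair, and fitted values against libraries at 0 depend on the prior count.

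Interferon-induced genes had negative differences, with Ifit1 at -7.98, Ifit3 at -7.27, Ifitm1 at -7.25 and Irf7 at -6.13. Irf7 had 7.63 CPM in the arthritic Notch3-/- and 408 CPM in the arthritic wild-type members, 64.9 CPM in the anti-Notch3 and 61.4 CPM in the isotype members, and 33.5 CPM in the healthy Notch3-/- and 3.12 CPM in the healthy wild-type members. For Irf7 the antibody pair thus did not share the fall of the arthritic genotype pair. Ifitm1 fell in both, with log2 ratios of -9.06 in the arthritic genotype pair and -5.17 in the antibody pair. Il1r2 was at -5.67 and Ccl8 at -6.22. Thbs1 was at -6.90, Col5a2 at -6.74, Tnfaip6 at -6.64 and Igfbp6 at -5.56. Tnfaip6 had 59.2 CPM in the healthy Notch3-/- and 1.25 CPM in the healthy wild-type members, beside 2415 CPM and 641 CPM in the fibroblast-gated cells of those libraries. The whole fibroblast list had 5 of 9 tested genes called lower, 9 negative values and a median of -4.35, against 0.04 over all genes. The list includes Dcn and Col1a2, which the members rule capped, and it was not summarised without them. Its 10 genes summed to 1123 CPM in the healthy Notch3-/- and 381 CPM in the healthy wild-type members, to 400 CPM in the arthritic Notch3-/- and 320 CPM in the arthritic wild-type members, and to 473 CPM in the anti-Notch3 and 946 CPM in the isotype members. The part of fibroblast RNA in these values was not tested.

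Among the positive differences, the cell cycle genes Hist1h2ap and Mki67 were at 8.92 and 3.58, with no UMI of either in the arthritic wild-type members. The antibody pair did not share this for Mki67, which had 27.2 CPM in the arthritic Notch3-/- and 0 CPM in the arthritic wild-type members, but 6.62 CPM in the anti-Notch3 and 14.4 CPM in the isotype members. Hist1h2ap had 5.30 CPM in the anti-Notch3 and 0 CPM in the isotype members. Lpl was at 3.71, Retnla at 2.86, Trem2 at 2.83, Pla2g7 at 2.90 and Plk2 at 3.57. Skint3 was at 8.67, with 0 CPM in both Notch3-/- libraries, 28.1 CPM in the healthy wild-type members and 1 UMI in the arthritic wild-type members. It had 53.0 CPM in the anti-Notch3 and 21.7 CPM in the isotype members. S100a8, at 4.69, rested on 1 healthy wild-type cell with 145 of that library's 148 UMIs, and Hbb-bs, at 8.74, on 1 arthritic Notch3-/- cell with 58 of 68 UMIs.

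The share of Cd209a/Mgl2 cells among all cells, knockout minus wild type, differed by -0.436 percentage points in the healthy pair. The difference was 3.09 points in the arthritic genotype pair and, for anti-Notch3 minus isotype, 4.595 points in the antibody pair, and this contrast was not tested. The healthy value turned to 0.545 points with cells thinned to 2000 UMIs and to 0.055 points with no Lyve1, Vsig4 or Folr2 UMI allowed.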

How the results depend on the processing

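The difference in the share of myeloid-gated cells between arthritic and healthy libraries stayed between -18.7 and -15.0 percentage points over the alternatives, and that in the share of all cells between -3.07 and -2.47 points. In the healthy pair, knockout minus wild type, the share of all cells turned positive when thinned and with no resident-gene UMI (0.545 and 0.055 points). Leaving out 1 library each gave -22.7 to -10.9 and -3.58 to -2.05 points. For arthritis, 5 genes passed with DESeq2, 141 with no filter on low counts and 0 with the genotype libraries only, and leaving out 1 library each gave 1 to 8. Without the healthy Notch3-/- library 8 passed, and without the arthritic Notch3-/- or the arthritic wild-type library 2 passed. For Notch3 targeting, 67 genes passed with no filter, 4 without cells with an Flt3 UMI, 0 without cells with a Cd3 or Trac UMI, 0 with at most 2 C1q UMIs and 41 with the arthritic pairs only. Leaving out 1 library each gave 1 to 107: 28 without the arthritic Notch3-/-, 24 without the arthritic wild-type, 91 without the healthy Notch3-/- and 107 without the healthy wild-type library. In the arthritic pairs, 5 genes passed with DESeq2, 65 with RLE scaling, 108 with no filter, 0 with at least 3 lectin UMIs, 3 with no Lyve1, Vsig4 or Folr2 UMI and 105 with at most 5% mitochondrial UMIs. Without cells with an Flt3 UMI 0 passed, without cells with a Cd3 or Trac UMI 12, with at most 2 C1q UMIs 4, without doublets 33 and with no pair term 0. Leaving out 1 library each with no pair term gave 1 to 45, with 18 without the arthritic Notch3-/-, 13 without the arthritic wild-type, 45 without the anti-Notch3 and 1 without the isotype library. The difference from the Lyve1/Vsig4/Folr2 macrophages had 58 genes with no filter and 0 to 18 when 1 library each was left out, with 18 without the arthritic Notch3-/- library. Against the remaining myeloid cells, the differences of Cd52 and Ramp1 turned to 0.38 and 0.15. The cause was not tested for any of these. Of the other values for single genes, 515 kept direction and side of the threshold, 69 newly passed and 168 were lost. No paired analysis by replicate was possible because the labels give each group a single library. The depth of 276963 UMIs in the isotype members and 284128 in the arthritic wild-type members limits what could be detected there.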

Other observations

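Gm8797 and Gm10036 were high in both wild-type libraries of the genotype pairs, in the Cd209a/Mgl2 cells and in the other cell sets. The genes given here were chosen after their values were seen. Gm8797 had 14.2 CPM in the arthritic Notch3-/- and 208 CPM in the arthritic wild-type members, 12.8 CPM in the healthy Notch3-/- and 76.7 CPM in the healthy wild-type members, and 22.5 CPM in the anti-Notch3 and 21.7 CPM in the isotype members. In fibroblast-gated cells it had 23.9 CPM in the arthritic Notch3-/- and 164 CPM in the arthritic wild-type library, 19.8 CPM in the healthy Notch3-/- and 83.8 CPM in the healthy wild-type library, and 22.1 CPM in the anti-Notch3 and 14.4 CPM in the isotype library. Gm10036 had 25.1 CPM in the arthritic Notch3-/- and 127 CPM in the arthritic wild-type members, and 17.9 CPM in the healthy Notch3-/- and 109 CPM in the healthy wild-type members. It had 23.8 CPM in the anti-Notch3 and 32.5 CPM in the isotype members. For both genes the isotype library, which is not labelled a knockout, lay closer to the Notch3-/- libraries than to the wild-type ones. The labels do not give the strain of the antibody-treated mice, and what sets these levels was not tested. The non-coding gene BC018473 had 0 CPM in both Notch3-/- and both antibody libraries of the members, 35.2 CPM in the arthritic wild-type and 58.6 CPM in the healthy wild-type members.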
